A study of Mus musculus with 23 samples.

Results

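Interferon-stimulated genes are the transcripts that cells make in answer to interferons. The 38 genes described here were chosen by name from genes widely used as interferon-response markers, and all 38 were found among the 24475 genes measured. Type I interferons bind the receptor made of Ifnar1 and Ifnar2, and the kinases Jak1 and Tyk2 then activate transcription factors such as Stat2, which joins Irf9 in a complex that binds a promoter element called ISRE. Interferon gamma uses the receptor made of Ifngr1 and Ifngr2 and acts mainly through another element called GAS. In thymus, medullary epithelial cells are known to make type I interferon at steady state, and many of these genes are transcribed there without infection.

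RNA sequencing covered 23 mouse samples in 3 groups, each sample 1 library, named here by the number in its label. The 6 control libraries (thymus) came from normal thymus of C57BL/6 mice. The 17 others came from unfractionated spleens of BALB/c Rag2-/-Il2rg-/- mice with T-cell acute lymphoblastic leukemia (T-ALL), which arose from a lobe of newborn donor thymus placed beneath the kidney capsule. The donor was wild type in 14 cases (WT T-ALL), of a CD45.1 congenic line that carries SJL DNA on the C57BL/6 background. It carried a knockout of Notch3 in 3 cases (Notch3 KO T-ALL), made by a β-galactosidase insertion in the first coding exon. The strain of the knockout donors and the ages of the control mice were not given in the sources used here. Leukemic cells thus came from the donor, while BALB/c host blood cells, lacking T, B and NK lymphocytes, remained in the same spleens. Tissue, host strain and disease cannot be told apart in a comparison with thymus.

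Values are log2(scaled RPKM + 1), where RPKM counts reads per transcript length and library size, and differences are given on this scale, which understates the change of genes near 0. Notch3 ranged from 2.62 to 4.29 in thymus and from 3.17 to 5.78 in WT T-ALL, and read 3.22, 2.59 and 3.74 in the 3 Notch3 KO libraries, where the transcript was thus still counted; its level alone does not check that label. The thymus libraries lay in 3 close pairs (1 with 3, 2 with 4, 5 with 6), with r across genes of 0.988 to 0.995 within pairs and 0.958 to 0.984 between them. All 23 libraries also fell on 2 sides of a gap in the summed level of 3 genes (Sco2, Srsf4 and 1110002L01Rik), called sides A and B here, which the labels do not name: side A held thymus 5 and 6, WT T-ALL 3, 4, 5 and 7 and all 3 Notch3 KO T-ALL, and side B held the rest. The summed scaled RPKM of erythroid markers was 0.174 to 2.36, 24.0 to 618 and 327 to 1757 in thymus, WT T-ALL and Notch3 KO T-ALL. Macrophage markers summed to 9.84 to 65.1, 28.2 to 445 and 317 to 470 in the same order, neutrophil markers to 57.1 to 531, 637 to 84652 and 202 to 7584, B cell markers to 17.2 to 22.7, 0.503 to 5.80 and 0.638 to 1.53, and T cell markers to 3067 to 4176, 1015 to 2488 and 1432 to 1613. WT T-ALL 110 stood apart, with the highest neutrophil sum (84652, the next highest being 17484) and the lowest mean r across genes with the 13 other WT T-ALL (0.877, against 0.906 to 0.942). The lower T cell sum in WT T-ALL came mostly from Cd4, Cd8a, Cd8b1 and Lck (means of 368, 614, 797 and 746 in thymus and 24.0, 110, 103 and 410 in WT T-ALL). The CD3 chains Cd3d, Cd3e and Cd3g averaged 273, 245 and 542 in thymus and 303, 234 and 494 in WT T-ALL. In Notch3 KO T-ALL these CD3 chains averaged 252, 218 and 335. The list for plasmacytoid dendritic cells could not be read as such, since Ccr9, which thymocytes also express, made up most of its sum in thymus (mean of 439), while Siglech, a defining marker, averaged 0.569, 0.253 and 0.102 in the 3 groups. In such bulk samples, fewer cells of a type and less RNA per cell cannot be told apart.

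The promoters below are shown because their genes carry the patterns that follow: a gene lower in every tumor than in thymus, 2 that followed the erythroid markers, 1 raised in a few tumors and 1 of the strain-variable Ifi200 family. Each line gives the 250 bases before the transcription start, 5′ to 3′ on the strand of the gene, from RefSeq on GRCm38.p6. Capitals mark the ISRE core GAAANNGAAA or, where the core lies on the other strand, TTTCNNTTTC; overlapping matches run together.
Ifit1, chr19:34640639-34640888, plus strand: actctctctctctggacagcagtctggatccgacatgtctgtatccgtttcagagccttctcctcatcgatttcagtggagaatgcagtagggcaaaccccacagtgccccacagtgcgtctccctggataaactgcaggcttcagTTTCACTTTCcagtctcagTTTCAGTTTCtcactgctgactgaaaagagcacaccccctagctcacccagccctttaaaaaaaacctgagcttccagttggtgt
Isg15, chr4:156200819-156201068, minus strand: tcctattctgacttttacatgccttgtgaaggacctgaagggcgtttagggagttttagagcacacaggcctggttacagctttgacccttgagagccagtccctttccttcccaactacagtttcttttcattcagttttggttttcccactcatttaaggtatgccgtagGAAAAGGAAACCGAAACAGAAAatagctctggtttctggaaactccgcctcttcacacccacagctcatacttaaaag
Rsad2, chr12:26456453-26456702, minus strand: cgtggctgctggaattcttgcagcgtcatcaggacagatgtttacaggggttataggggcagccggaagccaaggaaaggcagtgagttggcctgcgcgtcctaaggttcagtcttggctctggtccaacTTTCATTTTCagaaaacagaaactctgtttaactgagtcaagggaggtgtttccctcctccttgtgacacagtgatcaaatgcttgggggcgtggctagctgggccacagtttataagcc
Gbp2, chr3:142620413-142620662, plus strand: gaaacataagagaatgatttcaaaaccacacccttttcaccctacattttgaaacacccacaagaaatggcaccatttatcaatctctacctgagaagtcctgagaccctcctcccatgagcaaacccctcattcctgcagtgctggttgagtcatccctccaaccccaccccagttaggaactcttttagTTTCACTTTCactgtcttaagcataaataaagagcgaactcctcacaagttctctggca
Mndal, chr1:173880188-173880437, minus strand: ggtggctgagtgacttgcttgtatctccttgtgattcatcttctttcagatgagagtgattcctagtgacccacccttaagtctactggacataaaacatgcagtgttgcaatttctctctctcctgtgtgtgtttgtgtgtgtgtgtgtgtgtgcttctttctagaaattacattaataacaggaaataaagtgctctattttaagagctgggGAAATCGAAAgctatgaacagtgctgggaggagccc

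A window of this kind, with 50 bases after the start added, was at hand for 27 of the 38 genes. The ISRE core was present in 18 of them (66.7%), against 3.99% of all 27025 genes with a window, and the GAS letters TTCNNNGAA in 6 of them (22.2%), against 9.55%. Ifit1 held 2 cores, starting 104 and 85 bases before the transcription start, and Isg15 held 3 overlapping ones, of which the farthest started 78 bases before it. Rsad2 held 1 at 120 bases and Gbp2 1 at 59 bases before the start. Mndal had 2 windows for 2 starts, each with 1 core, at 36 bases before the start shown and 54 bases before the other. Isg20, Irf7, Irf9, Ifit2, Oasl1, Oasl2, Xaf1, Ifi44 and Ifi35 held none in their windows. Gbp3 and Irgm1 held it, as Gbp2 did. A match describes letters, not a bound site.

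In WT T-ALL, most of these genes were lower than in thymus, led by Ifit1, Ifit3 and Ifi27l2a, while Ifi204, Rsad2, Isg20 and Gbp3 were higher. By limma across 11919 genes with Benjamini-Hochberg adjustment at 0.05, all 38 genes passed the filter on low values, 20 were lower, 4 were higher and 14 were not called. Of all genes tested, 22.3% were lower and 29.3% higher. The median difference was -0.72 over the 38 genes and 0.08 over all genes. In Notch3 KO T-ALL, 15 of the 38 were lower and 2, Rsad2 and Isg20, were higher, against 16.3% and 21.2% of all genes, with medians of -0.66 and 0.08. The 15 became 9 without Notch3 KO T-ALL 1 (12.1% of all genes) and 9 without thymus 2 (15.1%), and the 2 higher became 5 with only these groups fitted (26.5%). Without WT T-ALL 110, 20 were lower and 3 higher in WT T-ALL, against 22.8% and 30.4% of all genes. Both comparisons use the same thymus libraries. Counting each close pair of thymus libraries as 1 sample left 13 lower and 1 higher (Ifi204) of 37 tested in WT T-ALL, against 13.7% and 16.9% of all genes, and 9 lower and 2 higher in Notch3 KO T-ALL, against 10.3% and 14.0%. Among libraries of side B, 15 of 37 were lower and 3 higher in WT T-ALL, against 19.6% and 23.1% of all genes. Among those of side A, 5 of 36 were lower and 0 higher in WT T-ALL, against 6.37% and 8.84% of all genes, and 7 were lower and 2 higher in Notch3 KO T-ALL, against 9.85% and 15.3%. Side A held only 2 thymus libraries.

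**Figure D1:**
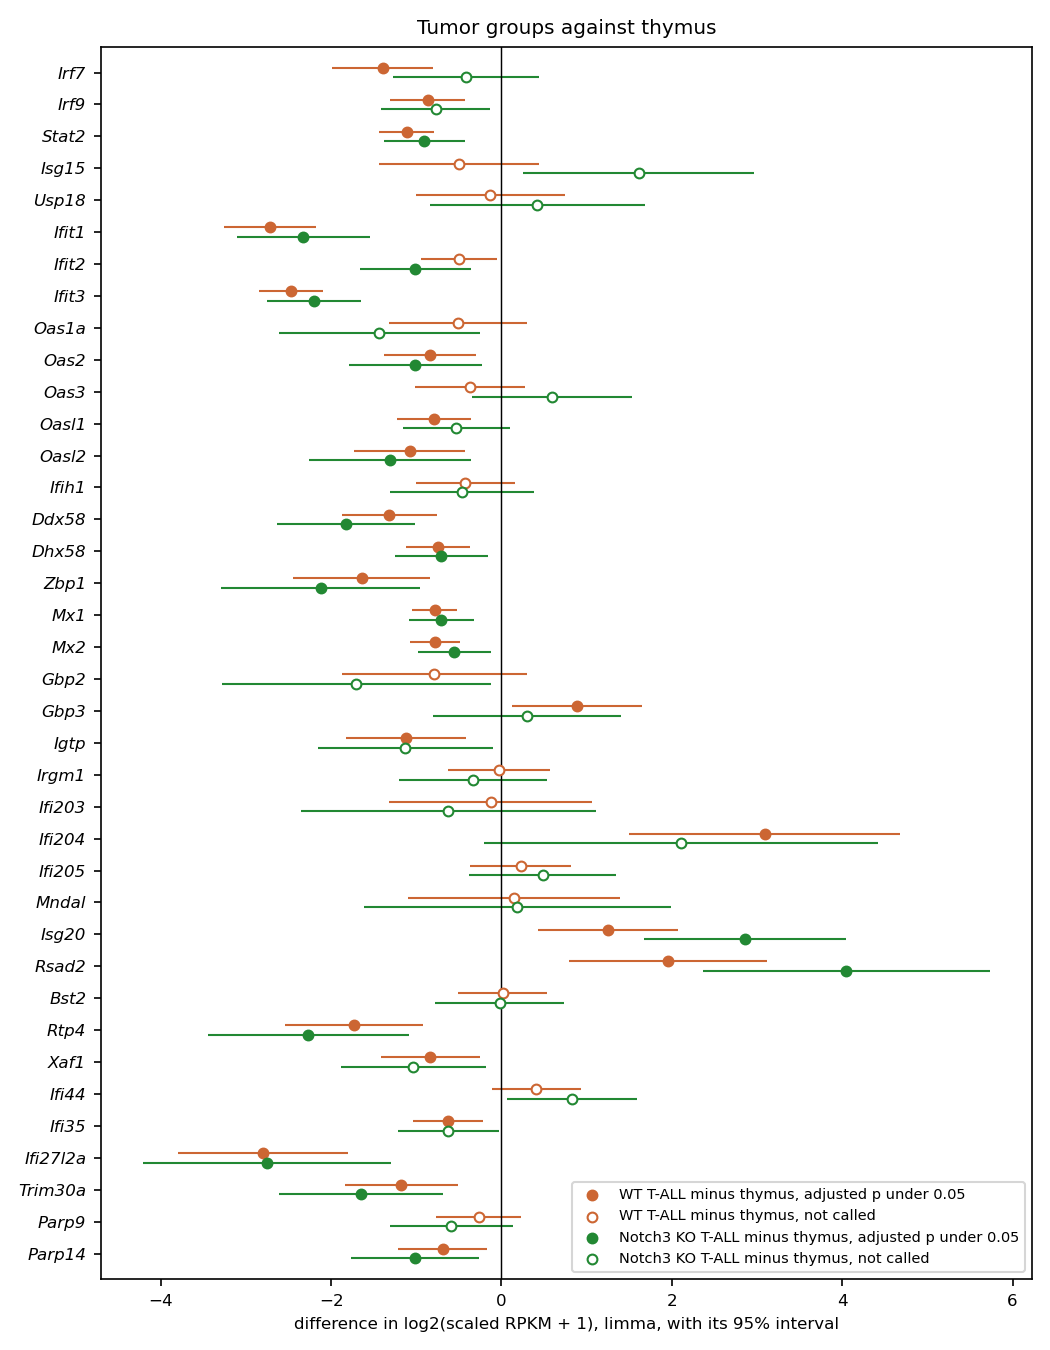
Difference from thymus in log2(scaled RPKM + 1) on the x axis for each of the 38 genes on the y axis, for WT T-ALL (n = 14, orange) and Notch3 KO T-ALL (n = 3, green) against thymus (n = 6). Points are limma estimates, filled where adjusted p was under 0.05, and lines are 95% intervals; most points lie left of 0, and Ifi204, Isg20 and Rsad2 lie farthest right.

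The transcription factors that carry the response were lower in WT T-ALL, 3 of 3 against 22.3% of all genes, and 1 of 3 was lower in Notch3 KO T-ALL, against 16.3%. Irf7 (chr7:141263183-141266499), which amplifies type I interferon production and is itself induced by it, had a lowest, median and highest value of 3.16, 4.04 and 4.34 in thymus and 1.63, 2.44 and 3.95 in WT T-ALL, and read 2.46, 4.27 and 3.73 in Notch3 KO T-ALL 1, 2 and 3. In 11 of 14 WT T-ALL it lay below every thymus library, whereas tumors 48, 108 and 110 and Notch3 KO T-ALL 2 and 3 lay within the thymus range. Its difference was -1.40 ± 0.29 (SE, adjusted p = 0.000348 by limma) in WT T-ALL and -0.42 ± 0.42 (adjusted p = 0.444) in Notch3 KO T-ALL. Stat2 (chr10:128270498-128292853) ran from 3.65 through a median of 4.12 to 4.48 in thymus and from 2.34 through 2.90 to 3.75 in WT T-ALL, with 3.02, 3.36 and 3.05 in Notch3 KO T-ALL. Only tumor 7 of the 17 tumors reached the thymus range, and the differences were -1.11 ± 0.16 (adjusted p = 5.46e-06) and -0.90 ± 0.23 (adjusted p = 0.00372). Irf9, the DNA-binding partner of Stat2, averaged 4.49 in thymus, 3.62 in WT T-ALL and 3.72 in Notch3 KO T-ALL, and was called in the first comparison only; the difference between the tumor groups was 0.10 ± 0.30.

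The Ifit proteins bind viral RNA that lacks host cap marks. Ifit1 (chr19:34640889-34650009) had values of 2.45, 3.59 and 4.21 (lowest, median, highest) in thymus and 0.30, 0.55 and 2.01 in WT T-ALL, and read 0.46, 1.83 and 1.19 in Notch3 KO T-ALL. No tumor of either group reached the lowest thymus library. The difference was -2.72 ± 0.26 (adjusted p = 2.44e-08) in WT T-ALL and -2.33 ± 0.38 (adjusted p = 6.15e-05) in Notch3 KO T-ALL. Ifit3 (chr19:34583119-34588982) behaved alike, with 2.11, 3.10 and 3.72 in thymus, 0.22, 0.57 and 0.96 in WT T-ALL, and 0.51, 1.26 and 0.78 in Notch3 KO T-ALL. Here too the tumors did not overlap with thymus, and the differences were -2.47 ± 0.18 (adjusted p = 3.07e-10) and -2.20 ± 0.27 (adjusted p = 1.91e-06). The calls of Ifit1 and Ifit3 held under all 22 alternatives run in WT T-ALL and all 21 in Notch3 KO T-ALL. Ifit2 stood apart from its neighbors, averaging 4.05 in thymus, 3.55 in WT T-ALL and 3.04 in Notch3 KO T-ALL. It was called lower in Notch3 KO T-ALL (-1.01 ± 0.32, adjusted p = 0.0147), a call lost under 5 of 21 alternatives, and its difference in WT T-ALL was -0.50 ± 0.22 (adjusted p = 0.0576). The difference between the tumor groups was not called (-0.51 ± 0.31, adjusted p = 0.765).

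Ifit1, Ifit3, Ddx58 and Mx2 were the 4 genes for which all 14 WT T-ALL lay below all thymus libraries, a state found for 6.64% of all genes tested. No gene of the 38 had all 14 above all thymus libraries, against 8.42% of all genes. For Notch3 KO T-ALL the same held for 16 of 38 genes, against 18.4% of all genes, and all 3 libraries lay above thymus for Ifi204, Isg20, Rsad2 and Ifi44, against 23.9% of all genes.

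The cytosolic sensors of foreign nucleic acid were lower as well, 3 of 4 in each tumor group, against 22.3% of all genes in WT T-ALL and 16.3% in Notch3 KO T-ALL. Ddx58 encodes RIG-I, a sensor of viral RNA (chr4:40203777-40239825). Its values were 3.44, 3.86 and 3.92 in thymus, 1.08, 2.38 and 3.35 in WT T-ALL, and 1.72, 2.52 and 1.67 in Notch3 KO T-ALL. The highest tumors, 5 and 48, stayed just under the lowest thymus library, and the differences were -1.32 ± 0.27 (adjusted p = 0.000329) and -1.83 ± 0.39 (adjusted p = 0.000906). Zbp1, a sensor of left-handed nucleic acid that can start cell death (chr2:173206612-173218959), had 4.42, 5.20 and 5.62 in thymus, 1.83, 3.35 and 5.77 in WT T-ALL, and 3.13, 3.24 and 2.64 in Notch3 KO T-ALL. It differed by -1.64 ± 0.39 (adjusted p = 0.00139) and -2.12 ± 0.57 (adjusted p = 0.00536), and among tumors only 48 and 110 reached thymus levels. Dhx58, a regulator of the RNA sensors, was called lower in both tumor groups (-0.75 and -0.71), although the call in Notch3 KO T-ALL was lost under 11 of 20 alternatives. Ifih1, which encodes the RNA sensor MDA5, was called in neither (-0.42 ± 0.28 and -0.46 ± 0.41).

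The Oas enzymes make the 2-5A messenger that activates RNase L, and Oasl1 and Oasl2 are their relatives. In WT T-ALL 3 of 5 were lower (Oas2, Oasl1 and Oasl2), against 22.3% of all genes. In Notch3 KO T-ALL 2 of 5 were lower, against 16.3% (Oas2 and Oasl2, lost under 10 and 8 of 20 alternatives). Oas1a (chr5:120896256-120907544) varied most, with 0.93, 1.67 and 2.28 in thymus and 0.00, 0.92 and 3.57 in WT T-ALL, and 0.52, 0.00 and 0.14 in Notch3 KO T-ALL. Tumor 48 alone exceeded thymus, and 7 of 14 WT T-ALL and all 3 Notch3 KO T-ALL lay below it, but neither difference was called (-0.51 ± 0.39 and -1.43 ± 0.57, adjusted p = 0.28 and 0.0504). Oasl2 (chr5:114896926-114912245) had 1.42, 1.99 and 2.30 in thymus, 0.05, 0.56 and 2.58 in WT T-ALL, and 0.26, 0.73 and 0.81 in Notch3 KO T-ALL. Its high tumors were 5 and 110, and the differences were -1.08 ± 0.32 (adjusted p = 0.00704) and -1.31 ± 0.46 (adjusted p = 0.0281). Oas3 gave -0.37 ± 0.31 and 0.59 ± 0.46 and was not called.

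The interferon-inducible GTPases guard against intracellular pathogens, and 3 of 6 were lower and 1 higher in WT T-ALL, against 22.3% and 29.3% of all genes, and 2 of 6 lower in Notch3 KO T-ALL, against 16.3%. Gbp2 (chr3:142620663-142638008) had 3.54, 4.01 and 4.42 in thymus and 1.63, 2.59 and 6.11 in WT T-ALL, and read 2.40, 2.22 and 2.22 in Notch3 KO T-ALL. Tumors 48, 110 and 5 lay above every thymus library at 6.11, 5.60 and 4.77, tumor 36 lay inside the thymus range at 4.29, and the 10 other WT T-ALL lay below it. The mean difference was not called (-0.79 ± 0.53, adjusted p = 0.216, and -1.71 ± 0.76, adjusted p = 0.0818). Igtp (chr11:58199556-58207592) had 5.60, 5.83 and 6.15 in thymus, 3.66, 4.48 and 6.75 in WT T-ALL, and 3.87, 5.56 and 4.74 in Notch3 KO T-ALL, and was lower in WT T-ALL (-1.12 ± 0.34, adjusted p = 0.00914). Again tumors 48 and 110 were the only ones in or above the thymus range. Gbp3 was higher in WT T-ALL by 0.89 ± 0.37 (adjusted p = 0.0475), with 10 of 14 tumors above every thymus library, and gave 0.30 ± 0.53 (adjusted p = 0.687) in Notch3 KO T-ALL. The WT T-ALL call of Gbp3 was lost under 17 of the 22 alternatives run, that without tumor 110 among them (adjusted p = 0.0604). Mx1 and Mx2 were near the floor of the scale in tumors (means of 0.33 and 0.43 in WT T-ALL, 1.11 and 1.21 in thymus) and were called lower in both groups, with the call of Mx2 in Notch3 KO T-ALL lost under 7 of 18 alternatives. Irgm1 averaged 4.04, 4.00 and 3.70 in the 3 groups and was not called.

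**Figure D2:**
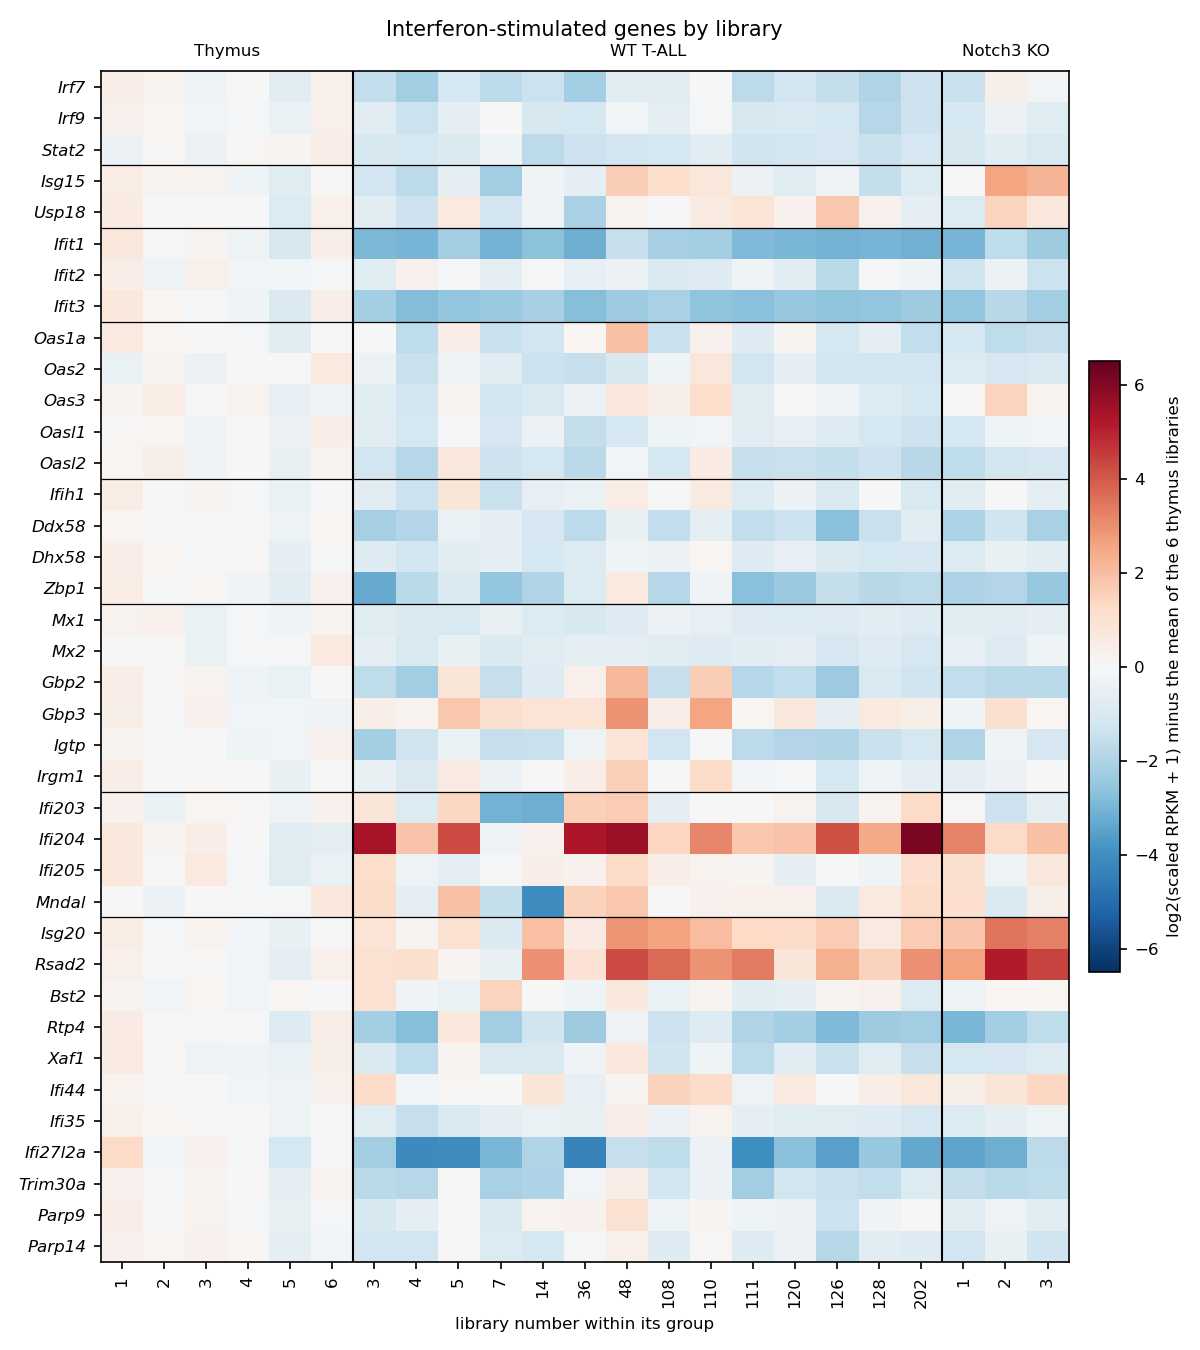
Heat map of the 38 genes (rows, ordered by role, thin lines between roles) in the 23 libraries (columns, by group). Color gives log2(scaled RPKM + 1) minus the mean of the 6 thymus libraries; WT T-ALL 48, 110 and 5 stand out for GTPase genes such as Gbp2, and Notch3 KO T-ALL 2 and 3 for Isg15, Isg20 and Rsad2.

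Tumor by tumor, the level of the response varied widely within WT T-ALL. The median over the 38 genes of the difference from the mean of all 23 libraries was 0.87 in tumor 48, 0.64 in tumor 110 and 0.36 in tumor 5, and lay between -0.78 (tumor 4) and -0.10 (tumor 108) in the 11 other WT T-ALL. The thymus libraries lay between 0.15 and 0.80, and Notch3 KO T-ALL at -0.50, -0.04 and -0.23. The same median over all genes tested stayed between -0.13 and 0.07 in every library. The part of the neutrophil content of tumor 110 in its value was not tested. Tumor 48 gave the highest WT T-ALL value for 17 of the 38 genes, tumor 5 for 7 and tumor 110 for 5. In tumor 48, 20 genes lay above every thymus library and 10 below, against 40.9% and 28.9% of all genes tested, whereas in tumor 4 the counts were 2 and 31, against 37.2% and 29.8%.

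Many of the genes moved together across tumors, and separate sets were not defined. Over the 14 WT T-ALL, the 595 pairs of the 35 genes that passed the filter there had a median Pearson r of 0.394, against 0.001 for pairs of all 11476 genes; the pairs share libraries and cell makeup, and without tumor 110 the median over the 595 pairs was 0.334. Gbp2 was closest to Irgm1 (r = 0.948) and Gbp3 (r = 0.938), and Igtp to Zbp1 (r = 0.933). Isg15 was closest to Isg20 (r = 0.919), and Isg20 next to Rsad2 (r = 0.872), while Gbp2 and Rsad2 had r of 0.232. Oasl2 and Rtp4 had r of 0.9. High values also ran across these pairs, as for Isg15 with Oas3 (0.818), Ifit1 (0.813) and Irgm1 (0.651). Oasl2 had 0.803 with Gbp3, and Rtp4 had 0.824 with Ifit1 and 0.764 with Gbp2. Outside the list, the 5 genes most like the mean of the 35 were Gbp5 (r = 0.956), Gm12250 (r = 0.952), Tgtp1 (r = 0.95), Ttc39b (r = 0.948) and Tgtp2 (r = 0.945). At least Gbp5, Tgtp1 and Tgtp2 of these encode GTPases of the families of Gbp2 and Igtp. Tgtp1 read 6.85, 6.00 and 5.12 in tumors 48, 110 and 5 and 0.13 in tumor 4.

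Among the ligands, 14 of the 17 interferon genes listed, Ifnb1 among them, had a value of at most 0.08 in every library, and Ifnab and Ifnz did not exceed 0.14. Ifng, the gene of interferon gamma (chr10:118441046-118445894), was the exception, with 1.12, 1.07, 0.58 and 0.47 in tumors 48, 110, 5 and 36. These are the same 4 tumors that were highest for Gbp2. In the 10 other WT T-ALL Ifng did not exceed 0.20, in thymus 0.23 and in Notch3 KO T-ALL 0.22. No ligand passed the filter, so none was tested.

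Of the 9 receptors and kinases, 8 were tested. In WT T-ALL 5 were lower (Ifnar1, Ifngr1, Ifngr2, Jak1 and Jak2) and 0 higher, against 22.3% and 29.3% of all genes. In Notch3 KO T-ALL 3 were lower and 0 higher, against 16.3% and 21.2%. Ifnar1, a chain of the type I receptor, had 4.38, 4.43 and 4.75 in thymus, 2.83, 3.39 and 3.83 in WT T-ALL, and 2.96, 3.58 and 2.85 in Notch3 KO T-ALL. No tumor reached the thymus range, with differences of -1.16 ± 0.13 (adjusted p = 1.27e-07) and -1.35 ± 0.18 (adjusted p = 7.15e-06). Ifnar2, the other chain, gave 0.07 ± 0.14. Of 15 genes of the induction route, 13 were tested, and 3 were higher (Irf8, Mavs and Tmem173, which encodes STING) and 4 lower (Irf3, Tbk1, Ikbke and Trim25) in WT T-ALL, and 2 and 2 in Notch3 KO T-ALL, against 29.3% higher and 22.3% lower of all genes in WT T-ALL and 21.2% and 16.3% in Notch3 KO T-ALL. Of 10 inhibitors of the pathway or of its triggers, all tested, 5 were lower and 1 higher in WT T-ALL, against 22.3% and 29.3% of all genes. In Notch3 KO T-ALL 4 were lower and 0 higher, against 16.3% and 21.2%. Socs1, which blocks the receptor kinases, differed most, with -2.39 ± 0.34 (adjusted p = 5.61e-06) and -3.19 ± 0.49 (adjusted p = 3.67e-05). Il2rg and Rag2 are the genes knocked out in the host. Il2rg read 7.31 to 7.74 in thymus and 5.96 to 7.29 in WT T-ALL. For Rag2 the thymus range was 6.21 to 6.79, against 1.00 to 5.98 for WT T-ALL. Both genes were called lower in WT T-ALL (Il2rg -0.88 ± 0.17, Rag2 -2.48 ± 0.71). They were also called lower in Notch3 KO T-ALL (-0.89 ± 0.24 and -3.53 ± 1.03). Whether host cells still gave counted reads of either gene was not tested.

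Rsad2 and Isg20 went against the direction of the list. Rsad2 encodes viperin, an antiviral enzyme that makes a chain-terminating nucleotide (chr12:26442743-26456452). Its values were 1.14, 1.88 and 2.14 in thymus and 1.31, 3.69 and 6.03 in WT T-ALL, and 4.43, 6.93 and 6.18 in Notch3 KO T-ALL. In 12 of 14 WT T-ALL and 3 of 3 Notch3 KO T-ALL it exceeded every thymus library, and tumors 5 and 7 did not. The differences were 1.95 ± 0.56 (adjusted p = 0.0061) and 4.05 ± 0.81 (adjusted p = 0.000537). Isg20, an exonuclease that degrades RNA (chr7:78913396-78920396), had 2.87, 3.28 and 3.84 in thymus, 2.42, 4.58 and 6.20 in WT T-ALL, and 5.15, 6.83 and 6.60 in Notch3 KO T-ALL. It too exceeded thymus in 12 of 14 and 3 of 3 tumors, with differences of 1.25 ± 0.40 (adjusted p = 0.0114) and 2.86 ± 0.57 (adjusted p = 0.000529). In WT T-ALL against thymus, Rsad2 gave 2.48 on side B and 0.59 on side A, and Isg20 1.53 and 0.51, with neither called on side A. With close thymus pairs averaged, the WT T-ALL calls were lost (adjusted p = 0.0626 and 0.0874) and those in Notch3 KO T-ALL were not (adjusted p = 0.00672 and 0.00651).

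Isg15 is a ubiquitin-like protein attached to other proteins during the response, and Usp18 removes it. Isg15 (chr4:156199424-156200818) had 4.25, 5.20 and 5.52 in thymus and 2.83, 4.43 and 6.63 in WT T-ALL, and read 5.08, 7.61 and 7.26 in Notch3 KO T-ALL. Tumors 48, 108 and 110 and Notch3 KO T-ALL 2 and 3 lay above every thymus library, and 5 WT T-ALL lay below. The differences were not called (-0.50 ± 0.45, adjusted p = 0.367, and 1.61 ± 0.66, adjusted p = 0.0569), although that in Notch3 KO T-ALL was called under 4 of 21 alternatives. Usp18 (chr6:121245906-121270917) had 1.91, 2.78 and 3.33 in thymus, 0.67, 2.84 and 4.50 in WT T-ALL, and 1.86, 4.23 and 3.49 in Notch3 KO T-ALL, and was not called either (-0.13 ± 0.42 and 0.42 ± 0.61).

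**Figure D3:**
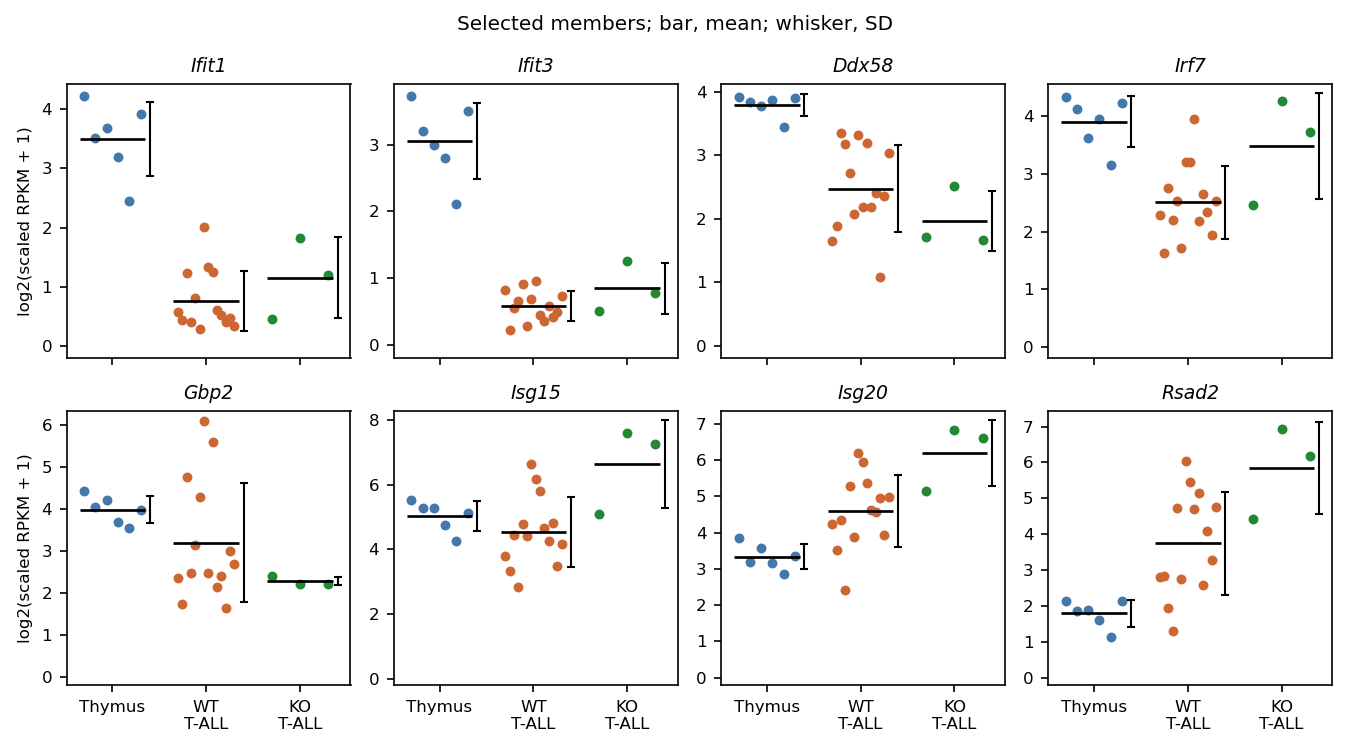
Values of 8 genes in log2(scaled RPKM + 1) on the y axis by group on the x axis. Each point is 1 library (thymus, 6; WT T-ALL, 14; Notch3 KO T-ALL, 3), bars are means and whiskers SD; Ifit1, Ifit3 and Ddx58 do not overlap between WT T-ALL and thymus, and Isg20 and Rsad2 lie highest in Notch3 KO T-ALL.

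The levels of Rsad2, Isg20 and Isg15 moved with the erythroid markers of the spleen. Across the 14 WT T-ALL, each doubling of the summed erythroid markers came with a rise of 0.97 ± 0.09 (SE) in Rsad2 (adjusted p = 2.34e-05 by limma over 11476 genes), 0.62 ± 0.09 in Isg20 (adjusted p = 0.00313) and 0.61 ± 0.12 in Isg15 (adjusted p = 0.0347). These were 3 of 35 genes tested, against 0.532% of all genes rising with that sum, and Rsad2 ranked 7 among all genes by p. Leaving out the 2 libraries farthest from the median sum gave slopes of 1.09, 0.75 and 0.88, all 3 still called. Among the 10 tumors of side B the slopes were 1.20, 0.77 and 0.91, but none was called (adjusted p = 0.0778, 0.31 and 0.468), with only 2 genes of 11232 called there. Notch3 KO T-ALL 2 and 3 had the highest erythroid sums of all libraries (10.8 and 9.86 on the log2 scale) and the highest values of all 3 genes. All 5 erythroid markers had medians of at least 1 scaled RPKM in both tumor groups, and 0 of 5 in thymus. The part of erythroid cells in these levels was not tested beyond these slopes.

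**Figure D4:**
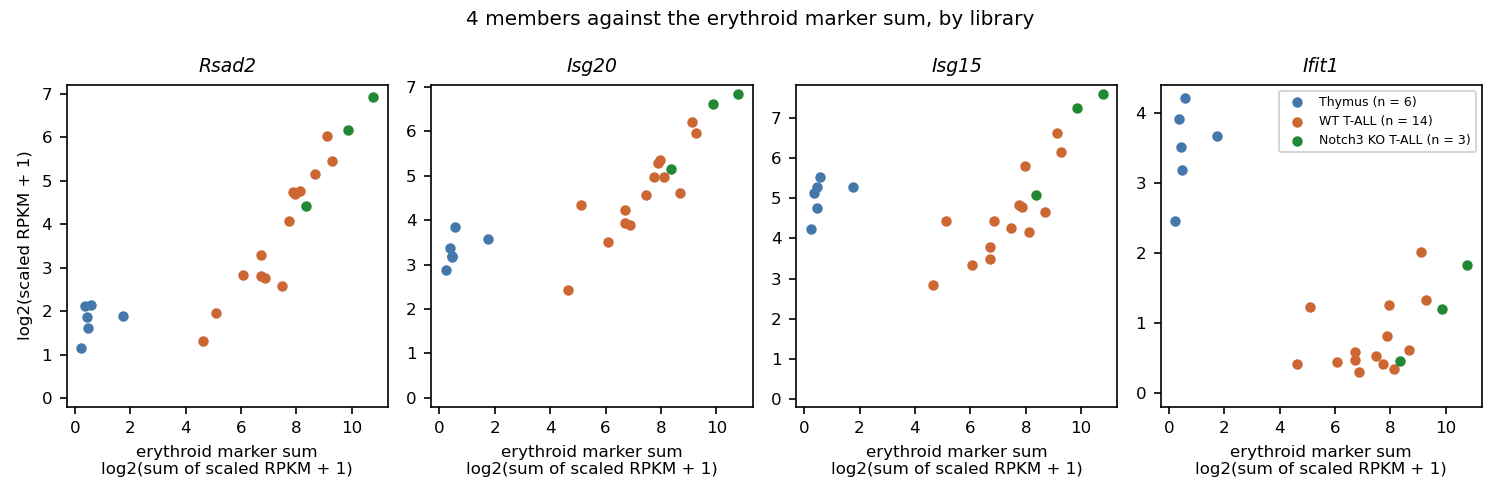
Values of Rsad2, Isg20, Isg15 and Ifit1 in log2(scaled RPKM + 1) on the y axis against the erythroid marker sum, log2(sum of scaled RPKM + 1), on the x axis. Each point is 1 library, colored by group; in the tumors Rsad2, Isg20 and Isg15 climb with the sum, and Ifit1 stays below every thymus library.

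With the macrophage sum, 1 of 35 genes rose, Ifi44 (0.41 ± 0.10, adjusted p = 0.0327), against 2.81% of all genes. With the neutrophil sum, 2 of 35 rose, Ifi27l2a (0.47 ± 0.10, adjusted p = 0.00921) and Ifi44 (0.23 ± 0.07, adjusted p = 0.0464), against 6.09% of all genes. None of these held without the 2 libraries farthest from the median sum. Ifi27l2a, a small membrane protein (chr12:103433873-103443680), was among the most abundant of the 38 genes in thymus, with 5.32, 6.37 and 7.70, and had 2.11, 3.62 and 6.10 in WT T-ALL and 3.07, 3.31 and 4.78 in Notch3 KO T-ALL. Tumor 110, the highest in neutrophil markers, was the only tumor inside the thymus range. The differences were -2.80 ± 0.48 (adjusted p = 6.13e-05) and -2.75 ± 0.70 (adjusted p = 0.00393).

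Of the other effectors, Rtp4, a receptor chaperone, and Trim30a, a regulator of inflammatory signaling, were lower in both tumor groups (Rtp4 -1.73 ± 0.39 and -2.27 ± 0.57; Trim30a -1.17 ± 0.32 and -1.65 ± 0.47). Parp14, an ADP-ribosyltransferase, was also lower in both (-0.69 and -1.02), with the calls lost under 8 of 22 and 11 of 21 alternatives, whereas its partner Parp9 was called in neither (-0.27 and -0.59). Xaf1, which promotes cell death, and Ifi35 were lower in WT T-ALL only by the call (-0.83 and -0.62), lost under 5 and 3 of 22 alternatives. Their differences in Notch3 KO T-ALL were -1.03 ± 0.41 and -0.62 ± 0.29. Bst2, which tethers budding viruses to the cell surface, was close to level in all 3 groups, with means of 5.47, 5.48 and 5.45, although tumors ranged from 4.57 to 6.93. Ifi44 gave 0.41 ± 0.25 and 0.83 ± 0.37, and was not called.

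The direct comparison of the tumor groups asked whether loss of Notch3 in the donor thymus changed these genes. By limma on the 17 T-ALL libraries, 35 of the 38 genes passed the filter, 0 were called and 5 had an unadjusted p under 0.05, against 0.617% of 11677 genes called and 8.51% with such an unadjusted p. The median difference was -0.03 over the 35 genes and 0.00 over all genes. The largest were Isg15 at 2.11 (95% interval 0.73 to 3.49, adjusted p = 0.179), Rsad2 at 2.10 (0.36 to 3.83, adjusted p = 0.382) and Isg20 at 1.61 (0.40 to 2.82, adjusted p = 0.289), the 3 genes that moved with the erythroid markers. No gene of the 38 had all 3 Notch3 KO T-ALL above or below all 14 WT T-ALL, against 0.319% and 0.117% of all genes. Within side A, where 4 WT T-ALL faced the 3 Notch3 KO T-ALL, the same 3 differences were 3.05, 3.62 and 2.57 with none called. With the side as a term they were bound to be the same in size, since no Notch3 KO T-ALL lay on side B. That fit took its spread from all 17 libraries, and all 3 were then called (adjusted p = 0.037, 0.0291 and 0.0327 by limma). The share of all genes called in that fit was not worked out. All 3 Notch3 KO T-ALL lay on side A, and the WT T-ALL of that side had log2 erythroid sums of 4.64 to 6.72, against 6.72 to 9.27 on side B, and the Notch3 KO T-ALL had 8.36 to 10.8. Within side A genotype and erythroid markers therefore cannot be told apart.

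The Ifi200 genes lie in 1 cluster on chromosome 1 and encode nuclear and cytosolic DNA-binding proteins. The cluster is known to differ between mouse strains in gene content and expression, and its genes are close copies of each other, so reads may be shared between them and single values are uncertain. Ifi204 (chr1:173747293-173767069) showed the widest range of all 38 genes, with 0.34, 1.14 and 1.73 in thymus and 0.80, 3.85 and 7.17 in WT T-ALL, and 4.24, 2.28 and 2.92 in Notch3 KO T-ALL. It exceeded all thymus libraries in 12 of 14 and 3 of 3 tumors, the exceptions being tumors 7 and 14, and the differences were 3.09 ± 0.77 (adjusted p = 0.00211) in WT T-ALL and 2.11 ± 1.12 (adjusted p = 0.142, not called) in Notch3 KO T-ALL. Tumors 202, 48, 3 and 36 led, at 7.17, 6.61, 6.37 and 6.29. The slope of Ifi204 on the macrophage sum was not called, with a wide error (-0.10 ± 0.44, adjusted p = 0.975).

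Ifi203 (chr1:173920400-173942866) had 4.46, 5.00 and 5.19 in thymus, 1.71, 5.03 and 6.56 in WT T-ALL, and 4.98, 3.54 and 4.32 in Notch3 KO T-ALL. Mndal (chr1:173857215-173880382) had 5.60, 5.88 and 6.64, then 1.93, 6.29 and 7.87, then 7.08, 5.05 and 6.33. Neither difference was called (Ifi203 -0.13 ± 0.58 and -0.62 ± 0.84; Mndal 0.15 ± 0.60 and 0.19 ± 0.87), but the spread in WT T-ALL was wide, with an SD of 1.54 and 1.58 against 0.31 and 0.36 in thymus. Tumor 14 was lowest for both, at 1.71 and 1.93, and tumor 7 read 1.84 for Ifi203 but 4.40 for Mndal. Ifi203 and Mndal were each other's closest gene among the list (r = 0.949 over 14 WT T-ALL), with Ifi204 next (r = 0.833 with Ifi203). Ifi205 (chr1:174011998-174031755) was low throughout, with 0.25, 1.01 and 1.76, then 0.40, 1.25 and 2.31, then 2.12, 0.72 and 1.79, and was not called (0.22 ± 0.29 and 0.49 ± 0.42).

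Outside the list, 8 other genes of the cluster were measured, and in WT T-ALL 2 were higher and 4 lower, against 29.3% and 22.3% of all genes. Ifi211 followed Ifi204, at 7.04, 6.92, 6.70 and 6.18 in tumors 202, 48, 36 and 3 and 0.63 to 1.77 in thymus, with a difference of 2.82 ± 0.86 (adjusted p = 0.00878). Pyhin1, Pydc3, Pydc4 and Ifi214 were lower in both tumor groups, with differences of -2.71 ± 0.44 and -2.93 ± 0.64 for Pyhin1 and -1.70 ± 0.12 and -1.79 ± 0.17 for Pydc4. Ifi202b, which is known to be barely expressed in C57BL/6 mice, was at most 0.18 in thymus, ran from 0.34 through a median of 1.31 to 3.20 in WT T-ALL and read 1.81, 1.16 and 2.28 in Notch3 KO T-ALL. All 17 tumors exceeded all thymus libraries, with differences of 1.36 ± 0.31 (adjusted p = 0.000901) and 1.71 ± 0.45 (adjusted p = 0.00457). Ifi202b rose with the macrophage sum (0.58 ± 0.10, adjusted p = 0.00585) and the neutrophil sum (0.35 ± 0.07, adjusted p = 0.00253) across WT T-ALL, but neither call held without the 2 libraries farthest from the median sum (adjusted p = 0.0783 and 0.672). Its highest tumors, 110 and 108, also had the highest neutrophil sums. Whether the counted reads came from the BALB/c host or the donor, which carries SJL DNA in WT T-ALL, was not tested, as the files hold no sequence variants.

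**Figure D5:**
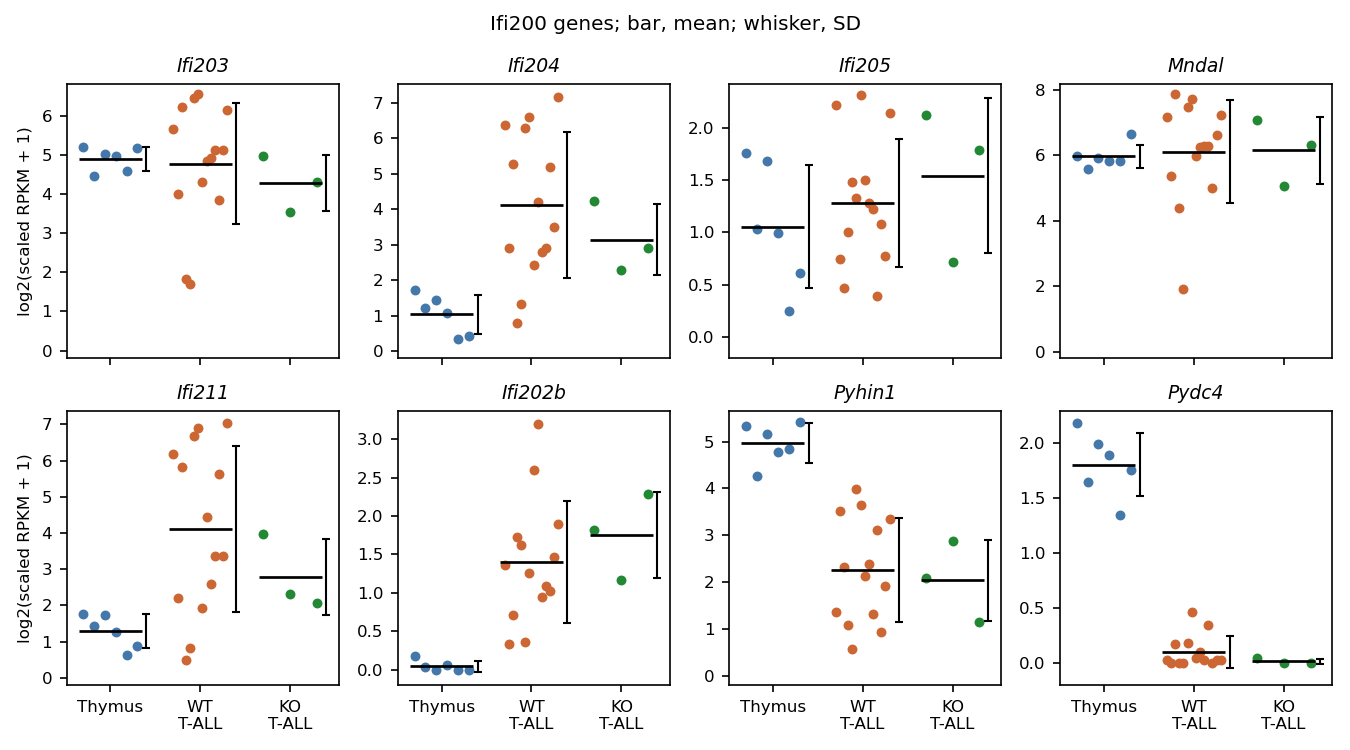
Values of 8 genes of the Ifi200 cluster in log2(scaled RPKM + 1) on the y axis by group on the x axis, each panel with its own scale. Each point is 1 library, bars are means and whiskers SD; Ifi204 and Ifi211 spread widely in WT T-ALL, Ifi202b is near 0 in thymus only, and Pydc4 is near 0 in the tumors.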

How the data were processed

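Total RNA of 23 mouse samples had been made into stranded mRNA libraries and sequenced as paired ends. The study mapped them onto transcripts of mm10, the build named in the submitters' processing notes, using the OSA aligner of ArrayStudio. The deposited values are log2 numbers made by the authors, and the scale was read from them: each column has a minimum of 0 and the same 75th percentile, as log2(scaled RPKM + 1) gives when that percentile is 10 scaled RPKM. The study's methods give only a rough read number common to all samples, and no read counts were used here, so how deeply any one library was read is not known.

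The 38 genes, the other gene lists and the comparisons were chosen with earlier results of these data known. Groups came from the labels. The study describes tumor and thymus values alike as 1 mouse each, but the labels do not tie the thymus libraries to animals, and these lay in close pairs. P-values measure the spread between libraries. Genes with at least 1 scaled RPKM in at least 3 of the libraries fitted were kept. The comparisons with thymus came from 1 limma fit (lmFit, then eBayes with trend and robust; limma 3.58.1 in R 4.3.3) of all 3 groups, and the tumor groups were compared in a fit of their own. P-values were adjusted by Benjamini-Hochberg over all genes tested, never over a list alone, and called at 0.05. Slopes on marker sums, log2(sum + 1) of erythroid, macrophage or neutrophil markers, were fitted in limma over the 14 WT T-ALL. The fits were tested on simulated data.

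Within each role, values are given in full for the 1 to 3 genes with the largest difference between any pair of groups and for all 4 Ifi200 genes, and the others by means, differences or counts. Mnda, AI607873 and BC094916 of the table were matched to Ifi211, Ifi207 and Ifi214, and Epb4.2 to Epb42, by RefSeq symbol. A gene of the receptor and kinase list is not reported here. Alternatives were another offset, filters, normalizations, moderation, sample sets and the library number as a block. The split into sides A and B, the averaged thymus pairs, the marker slopes and the fits without WT T-ALL 110 were added after the data were seen.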

Additional observations from a re-analysis of the deposited data

Results flagged for a closer look

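Among the 6 thymus libraries, 2 of the 38 genes had 1 library far from the other 5 by Dixon's ratio; at this limit chance alone gives about 1 such group in 20. Ddx58 read 3.44 in thymus 5, against 3.78 to 3.92 in the others, and Mndal read 6.64 in thymus 6, against 5.60 to 5.99. Thymus 5 and 6 are the pair on side A.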

How the results depend on the processing

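Single-gene differences were recomputed under the alternatives only for genes called in the main fits and for Isg15. Between the tumor groups they were recomputed for Isg15, Isg20 and Rsad2. None of these 946 differences changed direction. Uncalled genes with differences near 0, such as Bst2 and Irgm1, were not among them, so their direction was not checked. Counts of genes called among the 38 were within 1.5 times of those given except as follows. For WT T-ALL against thymus (20 lower, 4 higher), a replicate block of library number gave 8 lower and 1 higher, side A alone 5 and 0, and averaged thymus pairs 13 and 1. Leaving out 1 library of thymus or Notch3 KO T-ALL, or WT T-ALL 110, gave 17 to 21 lower and 3 to 4 higher. For Notch3 KO T-ALL against thymus (15 lower, 2 higher), fitting only those groups gave 5 higher, side A alone 7 lower and averaged pairs 9 lower. Leaving out 1 library gave 9 to 18 lower, with 9 without Notch3 KO T-ALL 1 and 9 without thymus 2, and 2 to 3 higher. For Notch3 KO T-ALL against WT T-ALL, the side as a term gave 3 higher in place of 0, and the replicate block 0. The share of all genes called was not worked out for fits with the side or a replicate block as a term. It was also not worked out for most fits without 1 library, so those counts have no background beside them. The 3 genes rising with the erythroid sum became 0 within side B. The causes were not tested, other than that these fits hold fewer samples or more terms. Library numbers did not pair the samples (r of deviations -0.24 to 0.15 over 7 pairs of equal number). Of these 946 differences, 819 kept their call, 120 lost it and 7 gained one. Quantile normalization moved the share of higher among all calls from 56.5% to 46.5% for Notch3 KO T-ALL against thymus, and the medians of all genes shifted by less than 0.13. An offset of 1 is already in the values and was not run again. How deeply any one library was read is not known, so the counting error of values near 0 (Mx1, Mx2, Ifng) could not be given.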
